A study of Mus musculus with 16 samples.

Results

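The Egr factors and their Nab corepressors were followed here as 5 genes, Egr1, Egr2, Egr3, Nab1 and Nab2, of 18193 genes named on the array. They were found as the probe sets whose only gene symbol in the platform annotation was one of these names, which gave 9 of 45101 probe sets. All 9 passed the filter on dim signals described below. The samples were cultured mouse aortic smooth muscle cells lacking Hey2 (Hey2 KO) and wild-type (WT) cells, on a mixed C57BL/6 and 129SvJ background, between passages 10 and 20. Hey2 is a transcriptional repressor of the Hairy/Enhancer-of-split family that acts downstream of Notch. Both genotypes came from aortas stripped of adventitia, were serum starved for 48 h in 0.4% FCS and then received 5 ng/ml human PDGF-BB. RNA was taken at 0, 15, 30, 60, 120, 180, 240 and 480 min, with 1 array for each genotype and time, so that 8 Hey2 KO arrays stood against 8 WT arrays. The design asked which transcripts differed in the response of the 2 genotypes to PDGF. The labels do not give the number of animals or cell isolates behind each genotype, so p-values measure only the spread between these arrays.

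Egr1, Egr2 and Egr3 are zinc-finger transcription factors encoded by immediate-early genes, whose transcription is switched on by growth factors without new protein synthesis. PDGF-BB activates its receptor tyrosine kinases and the ERK cascade, which acts on ternary complex factors bound with serum response factor (SRF) at CArG boxes in Egr promoters. Nab1 and Nab2 do not bind DNA: they bind the inhibitory domain of Egr1, Egr2 and Egr3 and recruit the NuRD chromatin-remodelling complex, and Egr proteins can induce Nab2, which closes a negative feedback loop. In smooth muscle cells of the vessel wall Egr1 is known as an early factor after injury that drives growth factor and coagulation genes.

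The deposited signals were not on a common scale, with 2% trimmed means between 187.0 and 342.5 on Hey2 KO arrays and between 80.99 and 299.5 on WT arrays. They were therefore quantile normalized and are given below as normalized signal, on a linear scale, or as log2(signal + 4.856). The arrays labelled WT 60 min and WT 480 min stood apart: across all tested genes their changes correlated with those of the Hey2 KO array of the same time at -0.33 and -0.38. The WT 60 min array was closest to the Hey2 KO 480 min array (0.57), and the WT 480 min array was closest to the Hey2 KO 60 min array (0.46). Same-time correlations were 0.38 to 0.52 for 0, 15, 30, 120, 180 and 240 min. Labels were kept as given, and the tests were run on all 16 arrays and on the 12 arrays without 60 and 480 min. The targeted gene was measured by probe set 1418106_at, whose place relative to the deleted part of Hey2 the labels do not give. Its signal was 23.32 to 63.33 in Hey2 KO cells, against 75.24 to 113.3 in the WT arrays of 0, 15, 30 and 480 min and 14.04 to 19.32 in those of 60 to 240 min. Averaged over the time course this probe set did not separate the genotypes (limma, KO minus WT -0.19, adjusted p = 0.6962). Its difference changed sign, from -1.43, -0.65 and -1.33 at 0, 15 and 30 min to 0.58, 0.71 and 1.10 at 120, 180 and 240 min. On 12 arrays its change with time differed between genotypes (limma, 1.93 ± 0.34, adjusted p = 0.006582).

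Egr1 was already well measured in quiescent cells, with a lowest signal of 1431 over all arrays. Its normalized signal in Hey2 KO cells was 1431 at 0 min, 6163 at 15 min, 9814 at 30 min, 10167 at 60 min, 4713 at 120 min, 5033 at 180 min, 7087 at 240 min and 4956 at 480 min. In WT cells it was 1824 at 0 min, 7028 at 15 min, 10020 at 30 min, 6825 at 60 min, 7315 at 120 min, 7964 at 180 min, 8459 at 240 min and 10937 at 480 min. The array of 0 min was the lowest of both genotypes, and by 15 min the signal was 4.31 times its own 0 min value in Hey2 KO cells and 3.85 times in WT cells. At every later time Egr1 was above its own 0 min signal in both genotypes. At 120, 180 and 240 min it stood at 48.0%, 51.3% and 72.2% of its 30 min signal in Hey2 KO cells, and at 73.0%, 79.5% and 84.4% in WT cells. The WT shares rest on the scaling of 1 array, WT 30 min, whose deposited trimmed mean was the lowest (80.99). As deposited, WT Egr1 was 6419.5 at 30 min and 8963.8, 6666.6 and 6679.8 at 120, 180 and 240 min.

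Egr2, also called Krox20 and best known as a regulator of hindbrain segmentation and of Schwann cell myelination, was near the limit of the filter in quiescent cells. Its normalized signal by probe set 1427683_at in Hey2 KO cells was 21.26 at 0 min, 172.0 at 15 min, 3685 at 30 min, 5224 at 60 min, 806.4 at 120 min, 572.1 at 180 min, 409.8 at 240 min and 218.6 at 480 min. In WT cells it was 16.10 at 0 min, 180.6 at 15 min, 3408 at 30 min, 640.2 at 60 min, 2641 at 120 min, 1632 at 180 min, 1435 at 240 min and 6339 at 480 min. Up to 30 min this probe set gave Hey2 KO minus WT log2 differences of 0.32, -0.07 and 0.11, with signals 173 times the 0 min value in Hey2 KO cells and 212 times in WT cells at 30 min. From 120 to 240 min every Hey2 KO array was below every WT array. At 120, 180 and 240 min the transcript stood at 21.9%, 15.5% and 11.1% of its 30 min signal in Hey2 KO cells, and at 77.5%, 47.9% and 42.1% in WT cells. The WT shares again rest on the scaling of the WT 30 min array. As deposited, this probe set went from 1323.2 at 30 min to 3373.3 at 120 min in WT cells, and from 4176.7 to 828.2 in Hey2 KO cells. The second probe set for Egr2, 1427682_a_at, followed the first across the 16 arrays (r = 0.98). It was lower in Hey2 KO cells at the early times as well, by log2 differences of -0.51 at 0 min, -1.05 at 15 min and -0.43 at 30 min. At 120, 180 and 240 min it stood at 22.3%, 12.7% and 9.71% of its 30 min signal in Hey2 KO cells, against 67.5%, 37.8% and 39.8% in WT cells. Schwann cell markers, which accompany Egr2 in nerve, were not called between genotypes on 16 arrays, where 30.7% of all genes were called. Of these markers 3 of 5 passed the filter (Sox10, Mbp and Pmp22). Their summed signal was 2290 to 4219 in Hey2 KO cells and 1129 to 4706 in WT cells.

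For Egr2, 5 promoter windows are listed by RefSeq for GRCm38.p6, each running from 250 bases before to 50 bases after an annotated start. No window of Egr1 or Egr3 was searched, so their promoters cannot be compared with that of Egr2 here. The window printed here is shown because it holds a CArG box, the type of site through which SRF acts on immediate-early genes, between bases -72 and -63 from that start, as well as 2 short CRE matches (TGACG, at -111 to -107, and on the opposite strand at -55 to -51). Capitals mark these matches, and the sequence runs 5′ to 3′ on the strand of the gene.
Egr2 promoter, chr10:67537619-67537918, plus strand: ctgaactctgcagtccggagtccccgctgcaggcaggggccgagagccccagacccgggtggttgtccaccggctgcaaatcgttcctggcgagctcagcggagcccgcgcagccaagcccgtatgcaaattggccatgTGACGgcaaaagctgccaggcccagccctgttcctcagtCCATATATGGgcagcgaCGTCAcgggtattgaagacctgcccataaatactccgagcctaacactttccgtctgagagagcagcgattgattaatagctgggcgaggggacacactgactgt
A search on both strands of all 32851 promoter windows in the table found a CArG box in 1.63% and a short CRE in 20.8%. The neighbouring Egr2 window that starts at 67537316 also held a CArG box, together with 3 matches to the Ets core CCGGAA, of which 2 overlap on opposite strands. The Ets core was present in 14.9% of all windows. A match describes the letters of the window and is no measurement of binding.

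Egr3, a close relative of Egr1 that binds the same GC-rich element, was also dim in quiescent cells. Its normalized signal by probe set 1436329_at in Hey2 KO cells was 23.04 at 0 min, 85.93 at 15 min, 2292 at 30 min, 4407 at 60 min, 2091 at 120 min, 830.3 at 180 min, 912.5 at 240 min and 312.6 at 480 min. In WT cells it was 41.27 at 0 min, 131.6 at 15 min, 3087 at 30 min, 885.2 at 60 min, 4012 at 120 min, 1590 at 180 min, 2186 at 240 min and 5915 at 480 min. The Hey2 KO array was the lower of the pair at 7 of 8 times, with 60 min the exception. In Hey2 KO cells Egr3 was at 91.2% of its 30 min signal at 120 min, 36.2% at 180 min and 39.8% at 240 min. In WT cells it stood at 130%, 51.5% and 70.8% of its 30 min signal at these times. These WT shares also rest on the scaling of the WT 30 min array. As deposited, WT Egr3 was 1188.6 at 30 min and 4953.3, 1378.1 and 1635.9 at 120, 180 and 240 min by this probe set. A second probe set for Egr3, 1421486_at, had signals of only 7.069 to 38.10, exceeded the filter of 16 on 7 of 16 arrays and did not follow the first (r = 0.04).

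**Figure D1:**
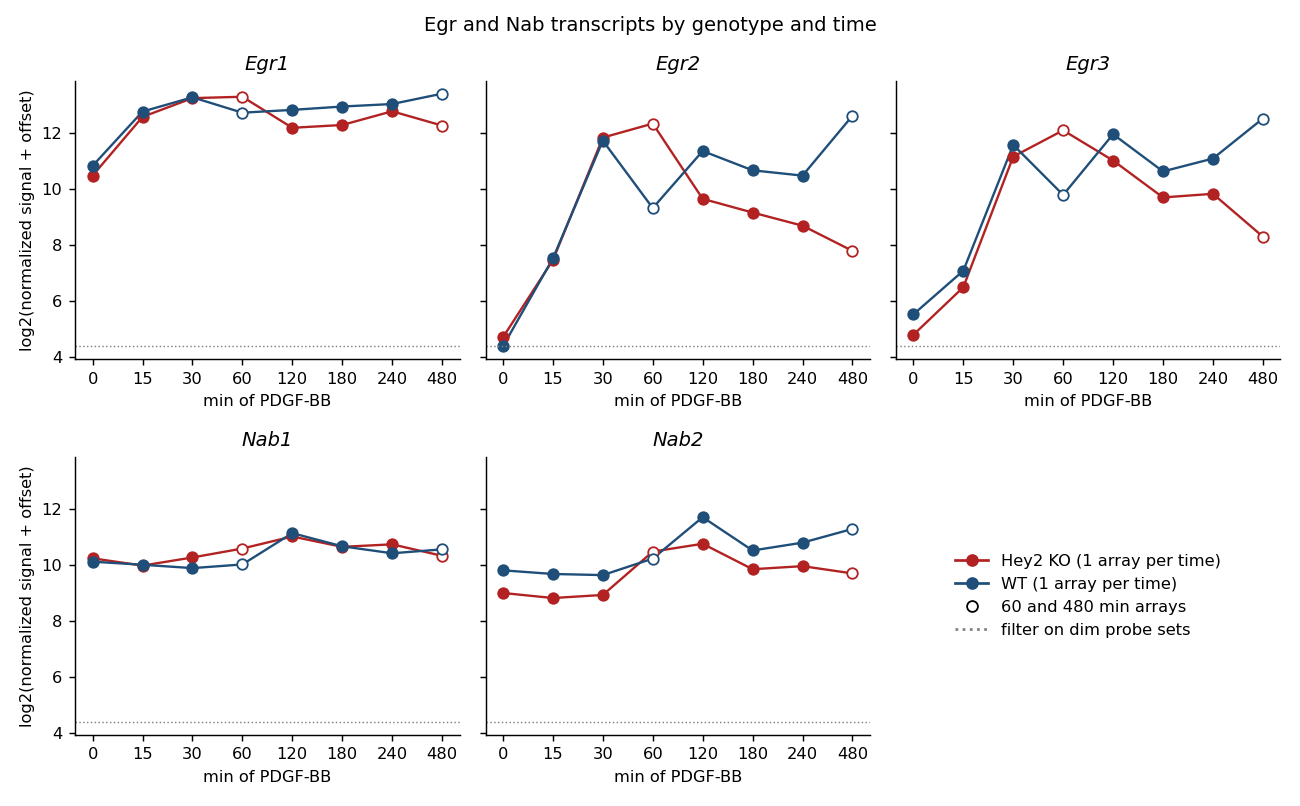
Each panel plots log2(normalized signal + 4.856) of 1 gene against minutes of PDGF-BB (evenly spaced, not to scale) for Hey2 KO (red) and WT (blue), with 1 array per point, open points for 60 and 480 min and a dotted line at the filter of 16. Egr2 reached 11.85 in Hey2 KO and 11.74 in WT cells at 30 min, and 8.70 in Hey2 KO and 10.49 in WT cells at 240 min, while Nab1 stayed between 9.89 and 11.14 on all arrays.

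Nab2 transcript was present in quiescent cells and was at its highest at 120 min in both genotypes. Its normalized signal in Hey2 KO cells was 506.0 at 0 min, 446.6 at 15 min, 481.5 at 30 min, 1420 at 60 min, 1730 at 120 min, 920.7 at 180 min, 992.3 at 240 min and 829.7 at 480 min. In WT cells it was 890.3 at 0 min, 815.1 at 15 min, 793.4 at 30 min, 1197 at 60 min, 3352 at 120 min, 1463 at 180 min, 1772 at 240 min and 2500 at 480 min. The peak at 120 min was 3.42 times the 0 min signal in Hey2 KO cells and 3.77 times in WT cells. Between 0 min and the mean of 120 to 240 min the log2 change was 1.20 in Hey2 KO cells and 1.20 in WT cells. Nab1, the corepressor related to Nab2, moved over a narrower range. Its normalized signal in Hey2 KO cells was lowest at 15 min (1004) and highest at 120 min (2065), and in WT cells it was lowest at 30 min (941.0) and highest at 120 min (2246). The Hey2 KO peak rests on the scaling: as deposited, Nab1 was 2129.9 at 120 min and 2567.2 at 240 min in Hey2 KO cells. The 2 genotypes overlapped in normalized signal, with Hey2 KO the lower at 4 times and the higher at 4. A second Nab1 probe set, 1448781_at, ran between 101.1 and 337.2 and followed the first (r = 0.82), and another, 1438819_at, was dim at 11.35 to 48.28 (r = 0.49).

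The promoter windows of the 2 corepressors are shown because Egr proteins can act on Nab genes and because the normalized signals of both transcripts peaked at 120 min. The Nab1 window held 3 matches to the Egr motif GCGNGGGCG, at -141 to -133 on the opposite strand, at -109 to -101 and at -38 to -30, as well as 1 short CRE, all in capitals. The Nab2 window held no match to any of the 5 motifs searched (CArG box, Egr motif, Ets core, CRE core TGACGTCA and short CRE).
Nab1 promoter, chr1:52500399-52500698, minus strand: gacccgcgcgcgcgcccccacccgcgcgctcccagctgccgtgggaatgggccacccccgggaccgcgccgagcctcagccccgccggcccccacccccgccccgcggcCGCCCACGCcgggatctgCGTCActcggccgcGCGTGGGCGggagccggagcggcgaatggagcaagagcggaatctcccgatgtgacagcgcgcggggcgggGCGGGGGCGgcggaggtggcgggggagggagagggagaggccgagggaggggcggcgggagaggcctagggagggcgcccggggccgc
Nab2 promoter, chr10:127666654-127666953, minus strand: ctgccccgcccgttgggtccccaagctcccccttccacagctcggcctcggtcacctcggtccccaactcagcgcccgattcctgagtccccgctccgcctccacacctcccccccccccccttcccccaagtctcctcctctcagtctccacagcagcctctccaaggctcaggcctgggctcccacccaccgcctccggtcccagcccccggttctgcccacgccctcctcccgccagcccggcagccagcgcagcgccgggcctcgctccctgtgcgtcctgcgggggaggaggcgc
The Egr motif was found in 5.55% of all promoter windows and the CRE core, which contains the short CRE, in 1.79%. The absence of a match in the Nab2 window says only that these letters are not among its 300 bases.

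The time course was first tested in windows that avoid the 60 and 480 min arrays. In the first window, 15 and 30 min against 0 min, Egr1 rose by a log2 value of 2.32 ± 0.26 (SE; limma over all 14299 genes, adjusted p = 0.01515). It was 1 of 5 members called, where 0.0140% of all genes were called and 0.00699% were called higher. The estimates for Egr2 (5.10 ± 1.12) and Egr3 (3.92 ± 0.87) were larger but not called (adjusted p = 0.9999 for both). On the 12 arrays the estimates were identical and Egr1 (adjusted p = 8.15e-07), Egr2 (8.18e-05) and Egr3 (1.13e-07) were all called, 3 of 5 members where 0.201% of all genes were called and 0.187% were called higher. The residual SD of Egr2, as moderated by limma, was 1.29 on 16 arrays and 0.47 on 12, and that of Egr3 1.01 and 0.18. Nab1 and Nab2 each stood at -0.14 in this window, with 95% intervals on 12 arrays of -0.39 to 0.10 for Nab1 and -0.34 to 0.07 for Nab2. The Egr1 call on 16 arrays was lost without the 15 min arrays (2.61, adjusted p = 0.06853), without the 30 min arrays (2.02, 0.9869), without the 240 min arrays (2.32, 0.0549) and without the intensity trend in the variance (0.07095). The WT 30 min array, the dimmest as deposited, also had the highest 3′ to 5′ ratio of Actb (3.88), and the part of this in the result was not tested.

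At 120 to 240 min all 5 members were above 0 min and all 5 were called on both sets of arrays, where 10.9% of all genes were called on 16 arrays and 35.0% on 12 (5.15% and 14.1% called higher). On 16 arrays the log2 rise was 5.55 ± 0.82 for Egr3 (SE, limma adjusted p = 0.003689), 5.46 ± 1.05 for Egr2 (0.01232), 2.03 ± 0.24 for Egr1 (0.001041), 1.20 ± 0.25 for Nab2 (0.0165) and 0.59 ± 0.15 for Nab1 (0.03565). The median over all genes was -0.08. The 2 Nab calls were lost on 16 arrays with the deposited scaling (Nab2 1.17, adjusted p = 0.2984, and Nab1 0.58, 0.7903) and without the 120 min arrays (0.88, 0.08176, and 0.44, 0.1242). Nab1 was also lost without the intensity trend (0.06646), without the 15 min arrays (0.05377) and without the 180 min arrays (0.06094).

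Set against 15 and 30 min, the later window was higher for both corepressors. Nab2 rose by a further 1.33 ± 0.20 (SE, limma adjusted p = 0.001785) and Nab1 by 0.74 ± 0.12 (0.003152), 2 of 5 members called where 22.0% of all genes were called and 9.18% were called higher. Egr1 stood at -0.29 ± 0.19 (adjusted p = 0.297), Egr2 at 0.37 ± 0.83 (0.7874) and Egr3 at 1.63 ± 0.65 (0.09706). On 12 arrays Egr1 fell by 0.29 (adjusted p = 0.01539) and Egr3 rose by 1.63 (1.08e-06), 4 of 5 members called where 42.7% of all genes were called, 17.4% higher and 25.3% lower. The values for Egr2 and Egr3 rest on the 15 min arrays, whose signals were far below those of 30 min. Against 30 min alone Egr2 was at -1.78 and Egr3 at -0.67, each called on 12 arrays (adjusted p = 0.006232 and 0.005109) and neither on 16 arrays (0.3406 and 0.661). Against 15 min alone Egr2 was at 2.51 on 12 arrays (adjusted p = 6.21e-04). Without the 30 min arrays Egr1 was at 0.00, and its 12-array call was also lost without the 120 min arrays (-0.21, adjusted p = 0.07774), with the deposited scaling (-0.06, 0.949) and without the intensity trend (0.0854). The 3′ to 5′ ratio of Actb, a sign of RNA quality, was 1.54 to 2.44 in Hey2 KO and 1.53 to 1.84 in WT cells at 120 to 240 min, against 1.95 to 3.71 in Hey2 KO and 2.41 to 3.88 in WT cells at 0 to 30 min; its part in these changes was not tested.

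Over the whole time course, tested as an F statistic over 7 time coefficients on 16 arrays, Egr1 (limma adjusted p = 0.01122), Egr3 (0.02561) and Nab2 (0.02564) were called, 3 of 5 members where 2.99% of all genes were called. Nab1 (0.06438) and Egr2 (0.07725) were not. On 12 arrays all 5 were called, where 35.8% of all genes were called. Egr1 remained called whichever single time was left out except 0 min, and Egr3 and Nab2 were called only where 60 or 480 min was the time left out.

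**Figure D2:**
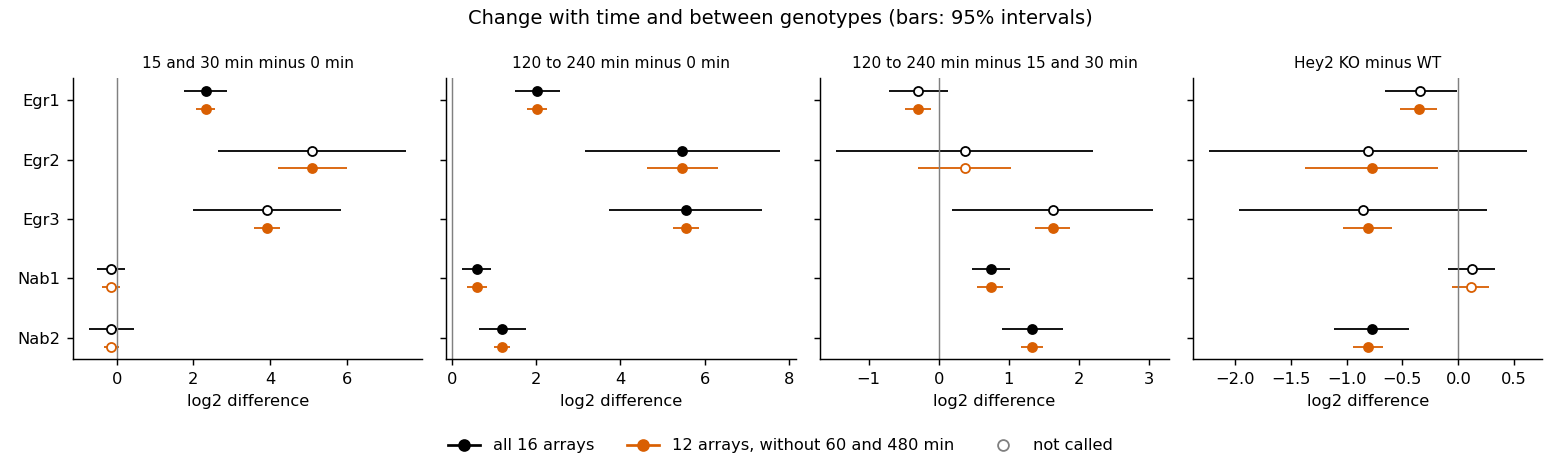
Points are log2 differences from the limma fit for each gene, for 3 pairs of time windows and for Hey2 KO minus WT, with bars for the 95% interval, filled where the adjusted p was under 0.05 and open where it was not. All 5 genes are called at 120 to 240 min against 0 min on 16 arrays (black) and on 12 arrays (orange), and the bars of Egr2 and Egr3 are longer on 16 arrays.

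Between genotypes, Nab2 had the narrowest range of differences over the 6 times without 60 and 480 min. It was lower in Hey2 KO than in WT cells at 7 of 8 times and at all of those 6, where the log2 difference ran from -0.95 to -0.67. The difference over the time course was -0.77 ± 0.15 on 16 arrays (SE, limma adjusted p = 0.002928), 1 of 5 members called where 30.7% of all genes were called. On 12 arrays it was -0.81 ± 0.06 (adjusted p = 1.31e-06). In linear signal Hey2 KO over WT was 0.568 at 0 min, before PDGF, and ran from 0.516 (120 min) to 0.629 (180 min) at the other times outside 60 and 480 min. In such bulk samples fewer cells of a type and less RNA per cell cannot be told apart.

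Egr3 and Egr1 were also on the low side in Hey2 KO cells at 7 of 8 times each. Egr3 differed by -0.85 ± 0.50 on 16 arrays (SE, limma adjusted p = 0.2368) and by -0.81 ± 0.10 on 12 (5.60e-05), with differences at the 6 times from -0.43 at 30 min to -1.26 at 240 min. Egr1 differed by -0.34 ± 0.15 on 16 arrays (adjusted p = 0.1121) and by -0.35 ± 0.08 on 12 (0.002639), from -0.03 at 30 min to -0.66 at 180 min. Egr2 differed by -0.81 ± 0.64 on 16 arrays (adjusted p = 0.384) and by -0.77 ± 0.27 on 12 (0.03898), a call that was lost when any of 120, 180 or 240 min was left out (adjusted p = 0.1324, 0.1192 and 0.1192) and without the intensity trend (0.1206). Its second probe set gave -1.21 ± 0.58 on 16 arrays (adjusted p = 0.1462) and -1.41 ± 0.24 on 12 (6.09e-04). Nab1 did not differ detectably, at 0.12 on 16 arrays (95% interval -0.09 to 0.33, adjusted p = 0.3654) and 0.11 on 12 (-0.06 to 0.27, 0.2849). On 12 arrays 4 of 5 members were thus called, all lower in Hey2 KO, where 42.5% of all genes were called and 20.9% were called lower.

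The genotype calls depend on the scaling of the arrays. With the deposited signals and no normalization, all 4 stayed negative and none was called: Nab2 stood at -0.43 on 16 arrays (limma adjusted p = 0.3727), and on 12 arrays Nab2 stood at -0.37, Egr3 at -0.41, Egr2 at -0.37 and Egr1 at -0.11. The median of all genes stood at 0.28 on 16 arrays under that scaling and at -0.02 after quantile normalization. Markers of cell types moved with genotype as well, on 16 arrays, where 16.6% of all genes were called higher and 14.1% lower. Smooth muscle markers were called lower in Hey2 KO for 5 of 6, with a summed signal of 6513 to 9549 in Hey2 KO and 12336 to 16349 in WT cells. Mesothelial markers were called higher for 5 of 5, with sums of 9689 to 12879 in Hey2 KO and 650.5 to 861.7 in WT cells. Fibroblast markers were called higher for 4 of 5 and lower for 1 (2835 to 4978 in Hey2 KO, 1749 to 6395 in WT), and leukocyte markers were called higher for 2 of the 4 tested and lower for none (157.5 to 239.4 in Hey2 KO, 88.95 to 136.6 in WT). Of 5 endothelial markers 2 were tested and neither was called, with Pecam1, Cdh5 and Tie1 below the filter (30.85 to 64.14 in Hey2 KO, 36.08 to 80.40 in WT). The part of these markers in the Egr and Nab differences was not tested.

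Whether the genotypes changed differently with time was tested as the change from before 120 min to 120 min or later, Hey2 KO minus WT. On all 16 arrays none of the 5 members was called, where 0.0140% of all genes were called by limma. Without adjustment 1168 of 14299 genes had a limma p under 0.05, and Egr1, Egr2 and Egr3 were among them. On the 12 arrays Egr2 was called, 1 of 5 members where 4.27% of all genes were called. Its log2 change from 0 to 30 min to 120 to 240 min was 1.17 in Hey2 KO cells and 2.96 in WT cells, a difference of -1.79 ± 0.15 (SE, limma adjusted p = 8.61e-05). At 0, 15 and 30 min the Hey2 KO minus WT difference was 0.32, -0.07 and 0.11, and at 120, 180 and 240 min it was -1.71, -1.50 and -1.80, so that the 2 sets of differences did not overlap. The second probe set gave -1.49 ± 0.20 on 12 arrays (adjusted p = 0.00301) and -2.91 ± 0.82 on 16 (0.4625).

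The Egr2 estimate on 12 arrays stayed between -1.69 and -1.88 with any further time left out, and each of these fits called it. It was not called on 12 arrays with the deposited scaling (-1.87, limma adjusted p = 1) or without the intensity trend (adjusted p = 0.05848). As labelled, the difference was 3.02 at 60 min and -4.83 at 480 min, and the 16-array estimate was -3.30 ± 0.85 (adjusted p = 0.3584). For Egr3 the difference in change was -1.98 ± 0.86 on 16 arrays (adjusted p = 0.6071) and -0.46 ± 0.14 on 12 (0.09856), and for Egr1 it was -0.67 ± 0.22 on 16 (0.5144) and -0.33 ± 0.11 on 12 (0.1243). For Nab1 it was -0.27 on 16 arrays (95% interval -0.67 to 0.12, adjusted p = 0.7082) and -0.10 on 12 (-0.40 to 0.20, 0.7754). For Nab2 it was -0.47 on 16 arrays (95% interval -1.11 to 0.16, adjusted p = 0.6944) and -0.02 on 12 (-0.28 to 0.23, 0.9479).

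**Figure D3:**
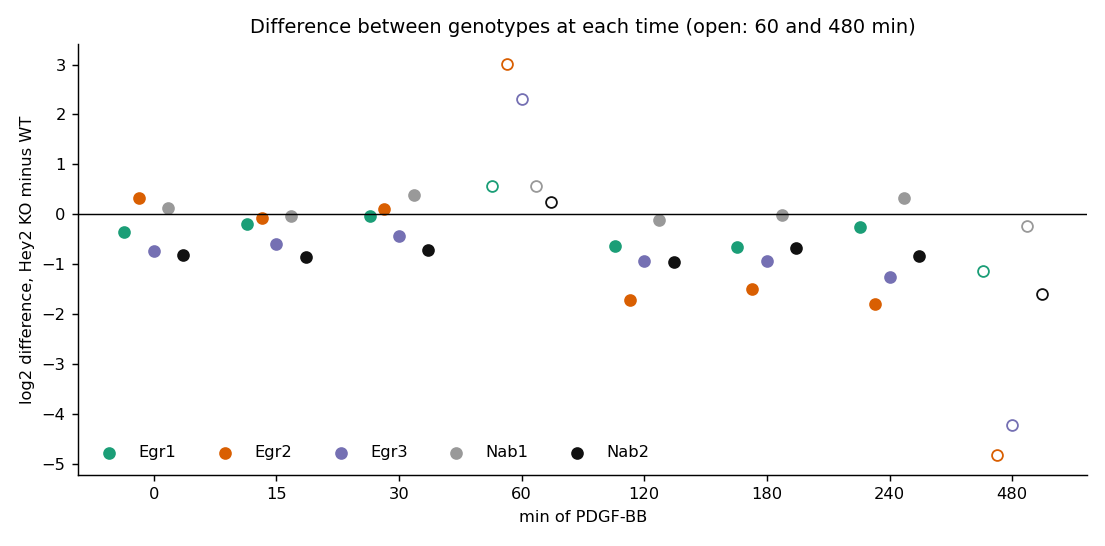
The log2 difference Hey2 KO minus WT is plotted for each gene at each time in minutes of PDGF-BB, with 1 pair of arrays per point and open points for 60 and 480 min. Nab2 (black) lies between -0.67 and -0.95 at the 6 times drawn filled, while Egr2 (orange) lies between -0.07 and 0.32 up to 30 min and between -1.50 and -1.80 from 120 to 240 min.

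Genes reported as targets of Egr factors were followed as a list of 27, of which 23 were tested on 16 arrays. At 15 and 30 min none was called by limma and none had an unadjusted p under 0.05 (Tgfb1, of smallest p, -0.44, adjusted p = 0.9999). On 12 arrays none of 22 was called and 1, Tgfb1, had an unadjusted p under 0.05. In this window 0.0140% of all genes were called on 16 arrays and 0.201% on 12. At 120 to 240 min against 0 min, 7 rose and none fell, where 5.15% of all genes were called higher and 5.72% lower, and the list median was 0.67 against -0.08 over all genes. The largest rises were in Sphk1, which makes sphingosine 1-phosphate (3.69 ± 0.47, limma adjusted p = 0.001412), and Flt1, a receptor for VEGF (3.23 ± 0.52, 0.005255). Flt1 was below the filter of 16 at 0 min, with log2 values of 3.39 in Hey2 KO and 2.80 in WT cells. It passed the filter mostly through arrays of 120 min or later, so its call carries little weight and the size of its rise is imprecise. Pdgfb and Pdgfa, which encode PDGF chains, rose by 2.98 ± 0.44 (0.00351) and 1.14 ± 0.16 (0.003287). Vegfa rose by 1.56 ± 0.20 (0.001652), and Gadd45b, a stress-response gene, by 1.37 ± 0.24 (0.007373). On 12 arrays 11 of 22 rose and 1 fell, where 14.1% of all genes were called higher and 20.9% lower, the exception being Id3, an inhibitor of basic helix-loop-helix factors (-2.31 ± 0.15, adjusted p = 1.03e-06).

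**Figure D4:**
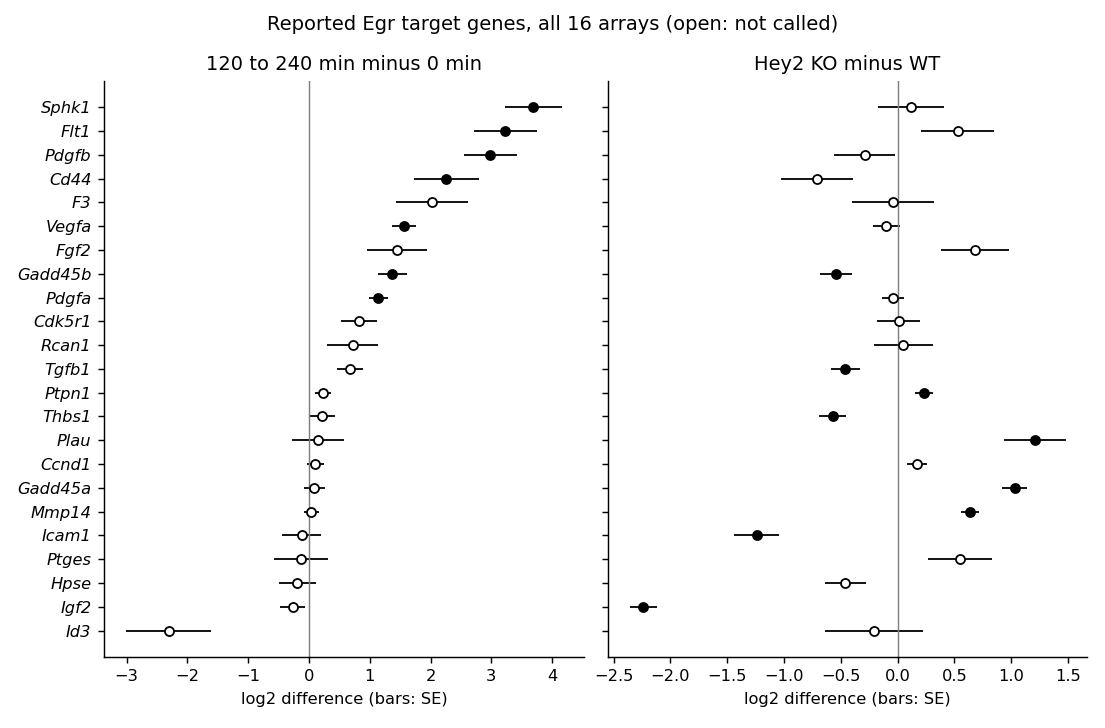
Each row is 1 of the 23 tested target genes, with its log2 difference at 120 to 240 min against 0 min on the left and Hey2 KO minus WT on the right, on 16 arrays with SE bars, filled where the adjusted p was under 0.05. Sphk1 (3.69) heads the left panel with 7 filled points above 0, and the right panel holds filled points on both sides of 0, from Igf2 (-2.24) to Plau (1.21). Plau was below the filter of 16 on every WT array, and Flt1 on the 0 min array of both genotypes.

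Between genotypes the target list went both ways, with 4 genes called higher and 5 lower in Hey2 KO cells of 23, where 16.6% of all genes were called higher and 14.1% lower. Igf2, a fetal growth factor, fell by 2.24 ± 0.12 (SE, limma adjusted p = 3.59e-07), Icam1, a leukocyte adhesion molecule, by 1.24 ± 0.20 (7.45e-04) and Thbs1, a matricellular protein, by 0.57 ± 0.12 (0.004313). Plau, the urokinase gene, rose by 1.21 ± 0.27 (0.00524), Gadd45a by 1.03 ± 0.11 (4.07e-05) and the membrane protease gene Mmp14 by 0.64 ± 0.08 (9.74e-05). Plau was dim, with log2 values of 4.04 to 5.00 in Hey2 KO and 2.53 to 4.25 in WT cells. It passed the filter through Hey2 KO arrays alone, so its call carries little weight. On 12 arrays 6 of 22 were higher and 7 lower, where 21.6% of all genes were called higher and 20.9% lower. The change with time differed between genotypes for 0 of 23 on 16 arrays by limma, where 0.0140% of all genes were called. An unadjusted p under 0.05 was found for 3 of 23, against 1168 of all 14299 genes. These were F3, tissue factor (-1.62, limma adjusted p = 0.5506), Ptpn1, a tyrosine phosphatase (-0.37, 0.4663), and Cd44, a hyaluronan receptor named here after its values were seen, which went the other way (1.32, 0.6057). On 12 arrays 3 of 22 were called and all 3 had a smaller rise in Hey2 KO, where 2.17% of all genes were called lower in this test: Pdgfb (-1.76 ± 0.22, adjusted p = 9.31e-04), Sphk1 (-1.75 ± 0.24, 0.001741) and F3 (-0.66 ± 0.16, 0.04041). Their levels over these arrays were not called between genotypes (Pdgfb -0.29, Sphk1 0.07 and F3 0.04). Pdgfb had log2 values of 5.70, 5.74 and 5.76 at 0, 15 and 30 min in Hey2 KO cells, against 5.39, 4.85 and 5.19 in WT cells. At 120, 180 and 240 min the values were 7.89, 8.26 and 7.69 in Hey2 KO cells, against 9.02, 9.29 and 9.02 in WT cells.

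Upstream of the Egr genes, 9 of the 14 listed genes for SRF, its cofactors and the ERK cascade were tested. At 15 and 30 min none was called by limma and none had an unadjusted p under 0.05 (Srf 0.51, adjusted p = 0.9999). On 12 arrays none was called and 1, Srf, had an unadjusted p under 0.05. Over all genes 0.0140% were called in this window on 16 arrays and 0.201% on 12. At 120 to 240 min against 0 min 3 of 9 rose and none fell on 16 arrays, where 5.15% of all genes were called higher and 5.72% lower, with Srf at 1.39 ± 0.30 (adjusted p = 0.01892), the S6 kinase gene Rps6ka3 at 0.52 ± 0.13 (0.02832) and the ternary complex factor Elk4 at 0.40 ± 0.11 (0.04104). On 12 arrays 4 rose and 1 fell, the SRF coactivator Mrtfa (-0.37 ± 0.11, adjusted p = 0.02026), where 14.1% of all genes were called higher and 20.9% lower. Between genotypes 2 were higher and 3 lower in Hey2 KO on 16 arrays, where 16.6% of all genes were called higher and 14.1% lower. On 12 arrays 3 were higher and 5 lower, where 21.6% were called higher and 20.9% lower. On 16 arrays Mrtfa fell by 1.01 ± 0.08 (5.23e-06), Elk3 by 0.53 ± 0.16 (0.02553) and Elk4 by 0.45 ± 0.07 (5.19e-04). The ERK kinase gene Map2k1 rose by 0.67 ± 0.12 (0.001988) and Rps6ka3 by 0.69 ± 0.08 (7.78e-05). On 12 arrays the change with time was called smaller in Hey2 KO for Srf (-0.65 ± 0.12, limma adjusted p = 0.009611) and Map2k1 (-0.64 ± 0.13, 0.01407). These were 2 of 9, where 2.17% of all genes were called lower in this test. On 16 arrays it was called for none (Srf -0.94, limma adjusted p = 0.3505). Srf was the 1 gene of the list with an unadjusted p under 0.05, against 1168 of all 14299 genes.

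All 13 listed subunits of NuRD, the complex that Nab proteins recruit, were tested. On 16 arrays the histone deacetylase Hdac2 was the 1 subunit called between genotypes (-0.30 ± 0.06, limma adjusted p = 0.003209) and Gatad2a the 1 called at 120 to 240 min against 0 min (0.68 ± 0.20, 0.04838), where 30.7% and 10.9% of all genes were called. On 12 arrays 1 of 13 was higher and 3 lower in Hey2 KO, where 21.6% of all genes were called higher and 20.9% lower. At 120 to 240 min against 0 min 3 of 13 rose and 2 fell on 12 arrays, 5 called in all where 35.0% of all genes were called. Of 4 factors that share the GC-rich motif with Egr1, Wt1, which is also a mesothelial marker, was higher in Hey2 KO on 16 arrays (2.87 ± 0.17, adjusted p = 8.67e-07) and on 12 (2.73 ± 0.12, 1.28e-08), and Sp3 was lower on 16 (-0.61 ± 0.16, 0.01528) and on 12 (-0.56 ± 0.14, 0.007378). Egr4, the remaining Egr family member, was dim, with a highest signal of 61.92 in Hey2 KO cells at 60 min and 80.04 in WT cells at 120 min. Its rise at 120 to 240 min against 0 min was 1.74 ± 0.62 on 16 arrays (adjusted p = 0.0926) and was called on 12 (0.007429).

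Over the 16 arrays the log2 values of Egr2 and Egr3 had a Pearson correlation of 0.96, Egr1 and Egr2 of 0.89, Egr1 and Egr3 of 0.82, and Nab1 and Nab2 of 0.70. Between factors and corepressors, Nab2 had 0.66 with Egr3, 0.52 with Egr2 and 0.36 with Egr1, and Nab1 had 0.51 with Egr3, 0.36 with Egr2 and 0.13 with Egr1. These values describe 16 arrays that share a time course and carry no test. The 4 tested genes most like Egr1 were Ier2 (0.889), Nr4a1 (0.853), Cyp4f39 (0.843) and Sag (0.834). Those most like Egr2 were Nr4a1 (0.958), Fosb (0.937), Sertad1 (0.919) and Atf3 (0.914), and those most like Egr3 were Arc (0.941), Ier5 (0.939), Sertad1 (0.936) and Fosb (0.926). Nr4a1, Fosb, Atf3, Arc, Ier2 and Ier5 are known immediate-early genes. Nab1 was most like Gse1 (0.944), Uap1 (0.942), Dusp14 (0.928) and Cttnbp2nl (0.923), and Nab2 was most like Fbxo30 (0.944), Klf16 (0.940), Dot1l (0.934) and Mier3 (0.925). Without 60 and 480 min the same 20 correlations ran from 0.867 to 0.967.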

How the data were processed

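RNA from 16 cultures was hybridized to Affymetrix arrays after biotin labelling, per the labels' protocols. The authors deposited 1 signal intensity per probe set and array on a linear scale. The submitters' processing notes name MAS5 for this step, with neither its version nor a target for scaling. Genotype and time came from the sample titles. Of 45101 probe sets, 34945 had 1 symbol in the platform annotation, 932 had several, 9160 had none and 64 were controls; 34754 were matched to RefSeq genes, from which gene names and promoter sequences (GRCm38.p6) were taken.

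The arrays were quantile normalized and 4.856, which is the 20th percentile of the normalized values, was added before taking log2, so differences of dim genes are understated. Probe sets entered the tests if 3 or more arrays had a signal above 16 (40th percentile of normalized values), and the brightest tested probe set stood for each gene. limma 3.58.1 in R 4.3.3 fitted time as a factor plus genotype to 14299 genes (13913 without 60 and 480 min), with an intensity trend in the variance. This fit had 7 residual degrees of freedom on all arrays and 5 without 60 and 480 min. The change with time by genotype had 6 on all arrays. Without 60 and 480 min it had fewer than 5, because it adds a coefficient. Time is the block that pairs the genotypes, since the titles give both the same times. p-values were adjusted by Benjamini-Hochberg over all genes, and a gene was called at an adjusted p under 0.05. The fit was tested on simulated data. The number of arrays limits the precision. No 2 arrays correlated above 0.9779, so none was taken for a duplicate.

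The members, the gene lists and the tests were chosen with earlier results of these data known. Named genes were the members, Hey2, the 4 genes most correlated with each member, and, per list and comparison, up to 6 called genes of smallest p, or the 2 of smallest p where none was called. The alternatives were the deposited scaling, a common 2% trimmed mean, offsets divided or multiplied by 3, no filter or a filter of 64, all probe sets as separate features, no intensity trend, no block, and leaving out times. Those run on the 12 arrays beyond the fit itself were chosen after seeing the data.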

Additional observations from a re-analysis of the deposited data

Results flagged for a closer look

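On the log2 scale Egr1 at 0 min was the lowest of the 8 arrays in both genotypes by more than Dixon's 95% critical value. The gap to the next array was 0.608 of the whole log2 range in Hey2 KO cells and 0.736 in WT cells. On linear signal the gap is a smaller share of the range in both genotypes. The 8 arrays of a genotype are different times, and the 0 min array is the one without time in PDGF-BB. In all, 10 groups were checked in this way (5 genes in 2 genotypes). Dixon's value is set for 8 values drawn from 1 distribution, which a time course is not, so no rate of passing by chance applies here.

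The change of Egr2 with time differed between the genotypes on the 12 arrays without 60 and 480 min, by -1.79 on the log2 scale (Hey2 KO change minus WT change, limma adjusted p = 8.61e-05). On all 16 arrays the estimate was -3.30 and was not called (adjusted p = 0.3584).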

How the results depend on the processing

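Counts are members called of 5, and brackets hold the number of all genes called, of 13913 to 14375 tested. Between genotypes the count was 1 on 16 arrays (4393). It was 0 with the deposited scaling (2159) and 0 with no replicate block (3636), where Nab2 stood at -0.77 (limma adjusted p = 0.1058). It was 4 without 60 and 480 min (5914) and 1 to 3 with a single time left out (3584 to 4918). For the time course it was 3 (427). It was 1 without the intensity trend (233), 5 without 60 and 480 min (4976) and 0 to 5 with a single time left out (153 to 1898). At 15 and 30 min against 0 min it was 1 (2). It was 3 with the deposited scaling (12), 0 without the trend (0), 3 without 60 and 480 min (28) and 0 to 1 with a single time left out (0 to 2). At 120 to 240 min against 0 min it was 5 (1554). It was 3 with the deposited scaling (280) and 3 to 5 with a single time left out (667 to 3063). Against 15 and 30 min it was 2 (3145). It was 4 without 60 and 480 min (5940) and 2 to 3 with a single time left out (709 to 4579). For the change with time by genotype it was 0 (2). It was 1 with the deposited scaling (6), where Egr2 stood at -3.18 (limma adjusted p = 0.007612). It was 1 without 60 and 480 min (594) and 0 to 0 with a single time left out (1 to 7). The member counts changed by no more than 1.5 times under the other settings. Signs turned for 120 to 240 min against 15 and 30 min with a single time left out, on 16 and on 12 arrays alike: Egr1 ran from -0.59 to 0.00, Egr2 from -1.78 to 2.51 and Egr3 from -0.67 to 3.92, the extremes being without 15 and without 30 min. On 12 arrays they also turned for the uncalled change by genotype of Nab1 (-0.23 without 240 min to 0.01 without 30 min) and Nab2 (-0.10 without 180 min to 0.05 without 120 min, and 0.02 without 30 min). Of 425 comparisons of a single member with an alternative on 16 arrays, 392 kept direction and call, 17 gained a call, 13 lost one and 3 changed sign; of 180 on 12 arrays, the numbers were 158, 3, 13 and 6. The causes were not tested. Signals of Egr2 and Egr3 at 0 min lay near the filter, so their folds over 0 min are imprecise.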
